A study of Arabidopsis thaliana with 8 samples.

Results

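A set of 55 probe sets of the ATH1 array, of 22746 tested, had a higher signal after NaCl in wild-type Arabidopsis seedlings and nearly the same signal with and without NaCl in seedlings that overexpress OsSHMT3, here called OE. The members were chosen by their measured values on a log2 scale, where a difference of 1 is a 2-fold change. NaCl minus control, from means of 2 arrays, had to be at least 1.2 in wild-type, with both NaCl arrays above both control arrays, and had to lie between -0.4 and 0.4 in OE. These limits were met by 60 probe sets. Of these, 5 were left out by symbol (PDF1.2, PDF1.2b, OSM34, UGT73C7 and a probe set shared by UGT73B2 and UGT73B3). A probe set is a handful of short probes on the array that together report a transcript. Of the 55 members, 30 name 1 gene, 4 name several genes and 21 carry no gene name here.

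Salt in the medium lowers the water available to roots and brings sodium and chloride into the tissue. Plants respond with abscisic acid signalling and with the synthesis of protective hydrophilic proteins, among them the late embryogenesis abundant (LEA) proteins, and of enzymes that remove reactive aldehydes and oxygen species. Serine hydroxymethyltransferase, the enzyme that OsSHMT3 of rice encodes, interconverts serine and glycine and passes a carbon unit to tetrahydrofolate.

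RNA of whole seedlings, 14 days old and grown hydroponically in MS medium, was measured on 8 arrays in 4 groups of 2, namely wild-type control, wild-type NaCl, OE control and OE NaCl. Wild-type was the Col-0 accession, and OE was a homozygous T3 line in that background with OsSHMT3 under the pENTCUP2 promoter and a kanamycin marker, which wild-type does not carry. The NaCl groups received 150 mM NaCl for 24 h, per the labels and the methods, although a legend of the study names a lower dose. OE3 and OE5 are both named in the methods for the arrays, which may thus stand for a single transformation event, and no probe set used here is annotated to the rice gene. The methods speak of replicated samples and of RNA in triplicate, while 2 arrays per group were used here, whose labels do not say whether they came from separate cultures. P-values thus measure the spread between these arrays, which may be technical. The leaf genes RCA and LHCB4.2 had group means between 12.4 and 12.9, and the root gene PYK10 between 7.05 and 9.47.

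The arrays were not equally alike. Across probe sets, the 2 arrays of a group differed with an SD of 0.213 (control) and 0.116 (NaCl) for wild-type, and of 0.430 (control) and 0.551 (NaCl) for OE. The median signal of the wild-type arrays ranged from 6.28 to 6.34 and that of the OE arrays from 6.00 to 6.33. OE NaCl replicate 2 stood apart from the other OE arrays, with a lower quartile of 4.33 against 4.59 to 4.61 in those and 4.28 to 4.38 in wild-type. Its correlation with its own replicate (0.9705) was close to its highest correlation with a wild-type NaCl array (0.9687). The rule asks for little change in OE, where the arrays of a group differed most. Some members whose values turn on OE NaCl replicate 2 are named below. In whole seedlings, fewer cells of a type and less RNA per cell cannot be told apart.

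The members are a small share of what salt raised in wild-type. The wild-type limits alone were met by 387 probe sets. In OE, 177 of these (45.7%) had a NaCl minus control difference of at least 1.2, 141 (36.4%) lay between 0.4 and 1.2, 60 (15.5%) lay within 0.4 of 0, and 9 (2.33%) lay below -0.4. Over all probe sets, 67.6% lay within 0.4 of 0 in OE. By the fit across all probe sets described below, 3.26% of all probe sets were called higher and 2.56% lower after NaCl in wild-type, and 4.88% were called higher and 2.33% lower after NaCl in OE. The rule used both of these comparisons, so they are given for the members without a test.

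**Figure D1:**
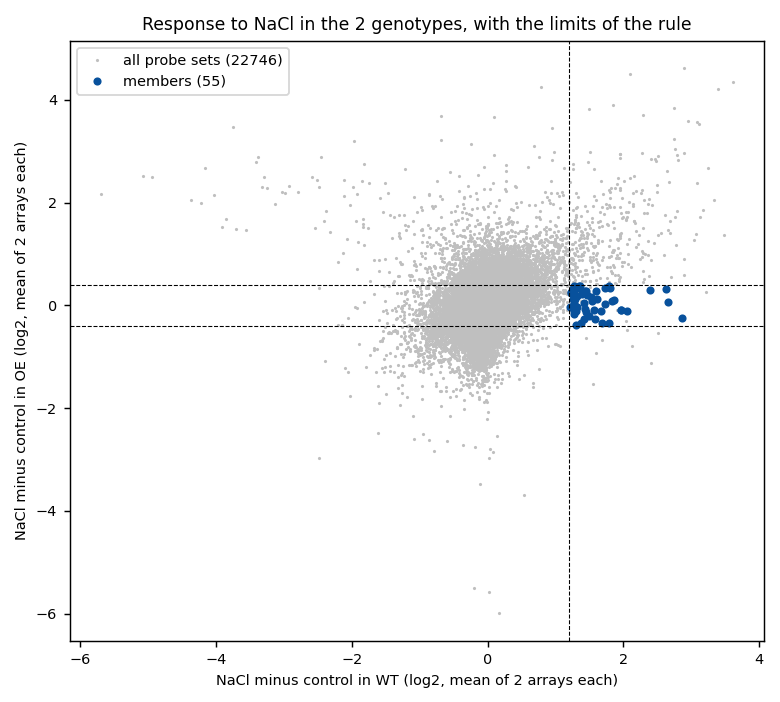
NaCl minus control in wild-type (x axis) against OE (y axis), on the log2 scale, for all 22746 probe sets (grey) and the 55 members (blue), with dashed lines at the limits of 1.2 and of -0.4 and 0.4. The members fill the strip right of 1.2 in wild-type and within 0.4 of 0 in OE, by construction.

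Among the members, the NaCl minus control difference in wild-type ran from 1.22 to 2.86 with a median of 1.44. In OE it ran from -0.38 to 0.38 with a median of 0.10 and was above 0 in 34 of 55. The median level of wild-type was 5.63 without and 7.29 with NaCl, and that of OE 5.42 without and 5.21 with NaCl. For comparison, the 176 probe sets that were higher by at least 1.2 in both genotypes, with arrays that do not overlap, had a median of 1.89 in wild-type and of 1.80 in OE. Most members were dim to moderately bright, and in 12 the OE mean lay under the lower quartile of all values (4.45). At such levels a further decrease is hard to measure on an array.

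The OE levels, which the rule did not fix relative to wild-type, were not the same for all members. Each member was given a position, the mean of its 4 OE arrays on a scale where 0 is its wild-type control mean and 1 its wild-type NaCl mean. The median position was 0.031, so the typical member in OE had the level of unsalted wild-type. Of 55 members, 40 had a position under 0.25, of which 24 were under 0, 10 lay between 0.25 and 0.75, and 5 were over 0.75. The positions ran from -1.67 to 1.19. All 4 OE arrays lay below all 4 wild-type arrays in 11 members, and below both wild-type NaCl arrays in 51. All 4 lay above both wild-type control arrays in 16. The shares of all probe sets with such separation were not counted, so nothing about the set is read from these counts. Positions share the wild-type arrays with the rule and carry no test.

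**Figure D2:**
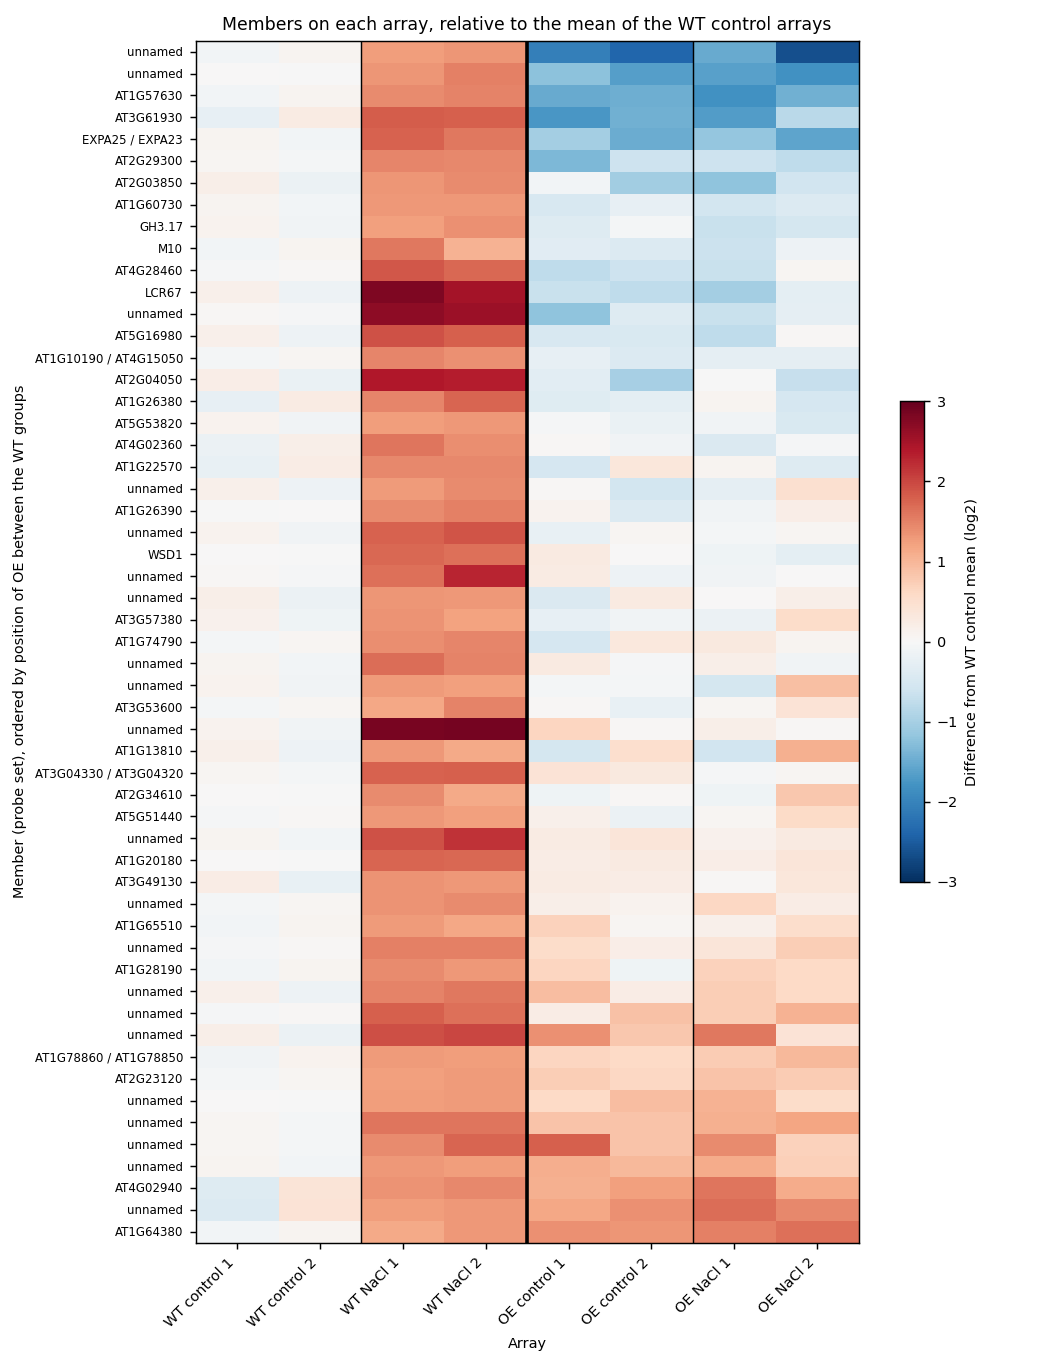
Each of the 55 members (rows, ordered by position from lowest at the top) on each of the 8 arrays (columns), as the log2 difference from its wild-type control mean (colour scale from -3 to 3). The wild-type NaCl columns are red in every row by the rule. The OE columns run from blue at the top, below wild-type control, through near white in the middle to red at the bottom, where 5 members have a position over 0.75.

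Only 1 comparison of the design weighs the 4 OE arrays against the 4 wild-type arrays equally, namely OE minus wild-type averaged over control and NaCl, here called the average difference. It was tested in a limma fit of the 4 group means with 1 shared spread and Benjamini-Hochberg adjustment over all 22746 probe sets, and calls are made at an adjusted p under 0.05. Of the 55 members, 37 were called lower in OE (67.3%), beside 16.1% of all probe sets, 2 were called higher, beside 13.7% of all probe sets, and 16 were not called. The count of 37 adds little to the positions, which the rule did not fix. A member that sat at its wild-type control level in OE has an average difference below 0 by construction. That value lies midway between 0 and minus its wild-type difference, with a median of -0.72 over the members. The measured median was -0.72 too, against 0.016 for all probe sets, so nothing about the set is read from this count, and members with an average difference below 0 are described by their values without a test of their own. All 37 had a position under 0.25. Of the 37, 28 kept the call when each array was left out in turn, and 1 of the 2 called higher did so. The members are described below by what their genes are known to do, in groups made after their values were seen.

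Genes of defence and of the cell wall included members whose OE arrays all lay below wild-type. LCR67, a plant defensin also known as PDF1.1, read 5.27 and 4.97 in wild-type control, 7.93 and 7.62 in wild-type NaCl, 4.45 and 4.36 in OE control, and 4.10 and 4.83 in OE NaCl. Every OE array lay below every wild-type array, and OE minus wild-type was -0.72 in control and -3.31 in NaCl. AT1G57630, which encodes a protein with a TIR domain, a domain found in immune receptors, read 6.34 and 6.48 in wild-type control, 7.83 and 7.91 in wild-type NaCl, 4.89 and 4.94 in OE control, and 4.59 and 4.98 in OE NaCl. The gap between OE and unsalted wild-type, -1.50 in control, was about as large as the wild-type difference with salt, 1.46. In NaCl the gap was -3.08.

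A probe set shared by EXPA25 and EXPA23, expansins that loosen the cell wall, read 5.69 and 5.54 in wild-type control, 7.38 and 7.20 in wild-type NaCl, 4.60 and 4.11 in OE control, and 4.46 and 4.02 in OE NaCl. Its OE arrays also lay below all wild-type arrays, by -1.26 in control and -3.04 in NaCl. A probe set shared by AT3G04330 and AT3G04320, Kunitz-type protease inhibitors, was dim, at 3.54 and 3.42 in wild-type control and 5.25 and 5.28 in wild-type NaCl. In OE it read 3.89 and 3.77 in control and 3.44 and 3.53 in NaCl, so that OE lay above unsalted wild-type without salt and within its range with salt. A probe set shared by AT1G78860 and AT1G78850, mannose-binding lectins, was one of the brightest members. It read 10.35 and 10.55 in wild-type control, 11.72 and 11.71 in wild-type NaCl, 11.10 and 11.05 in OE control, and 11.22 and 11.42 in OE NaCl. Here all OE arrays fell between the wild-type groups, at a position of 0.59. OE minus wild-type was 0.62 in control and -0.40 in NaCl. A member midway between the wild-type groups has an average difference near 0 by construction, because these 2 differences cancel. The average difference of 0.11 (SE 0.10, limma adjusted p = 0.403) therefore does not mean equal levels in the 2 genotypes.

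**Figure D3:**
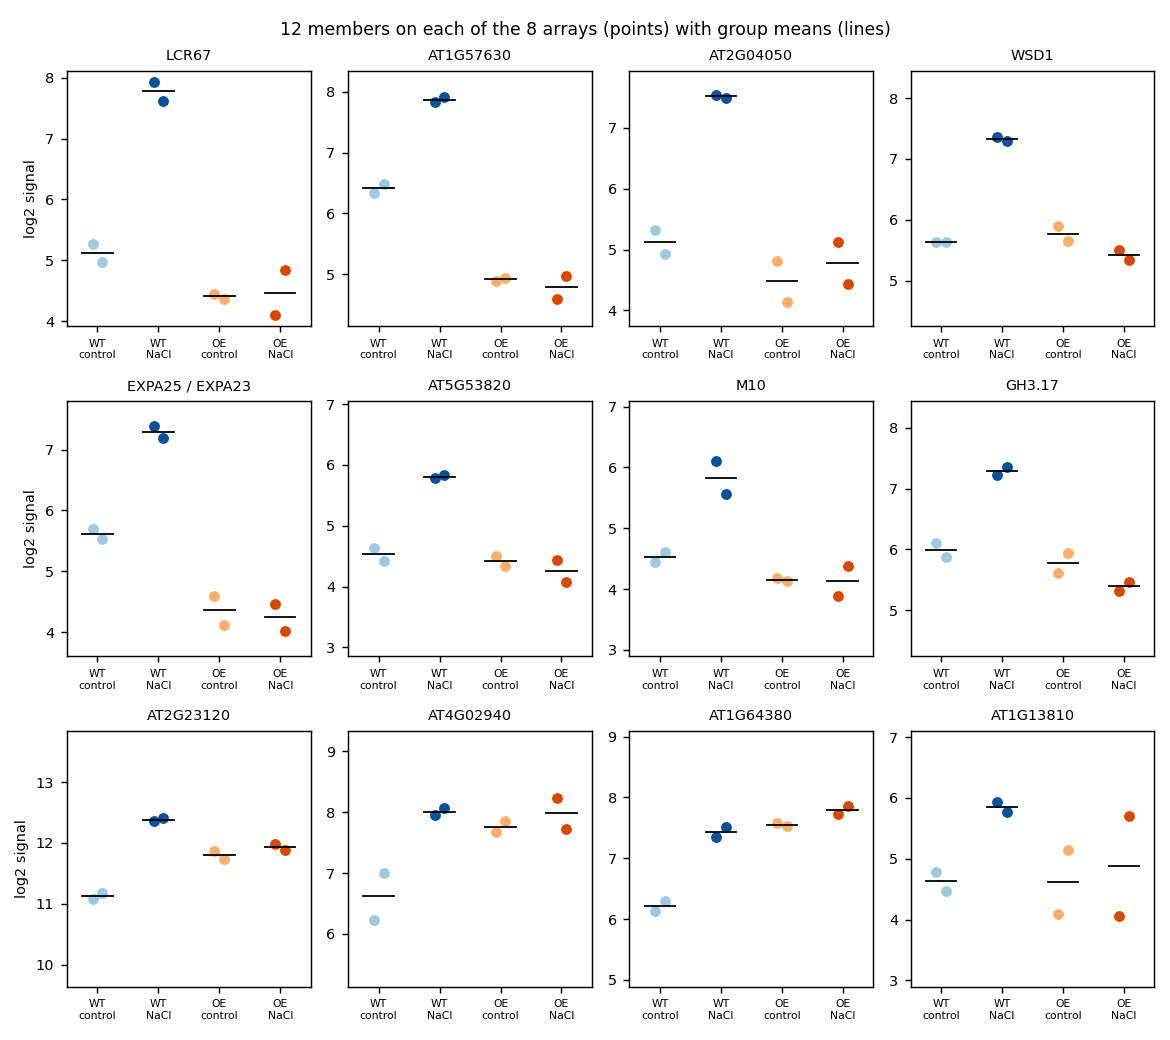
Log2 signal of 12 members on each of the 8 arrays (points) with group means (lines), in the order wild-type (WT) control, WT NaCl, OE control and OE NaCl. Each panel has its own y axis, which does not start at 0. LCR67, AT1G57630 and EXPA25/EXPA23 have all OE points below the WT control points, AT2G23120 and AT4G02940 have them above WT control, AT1G64380 has them above every WT point, and in AT1G13810 the 2 arrays of each OE group lie far apart.

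Enzymes that oxidize or reduce their substrates, and a carrier, gave members from several families. AT2G04050, a carrier of the MATE family, which exports organic compounds from the cytosol, read 5.33 and 4.93 in wild-type control, 7.54 and 7.50 in wild-type NaCl, 4.81 and 4.15 in OE control, and 5.12 and 4.44 in OE NaCl. The OE arrays overlapped those of unsalted wild-type and lay more than 2 below salted wild-type, and OE minus wild-type in control was -0.65. AT5G16980, a zinc-binding dehydrogenase next to the 2-alkenal reductase gene AER, read 5.45 and 5.13 in wild-type control and 7.20 and 7.08 in wild-type NaCl. In OE it read 4.81 and 4.84 in control and 4.54 and 5.31 in NaCl, the last array alone being within the range of unsalted wild-type. AT2G29300, a short-chain dehydrogenase of the tropinone reductase type, was brighter, at 7.55 and 7.43 in wild-type control and 8.95 and 8.94 in wild-type NaCl. Its OE arrays, 6.15 and 6.86 in control and 6.86 and 6.72 in NaCl, were all below wild-type, by -0.98 in control and -2.15 in NaCl.

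AT1G60730, an aldo-keto reductase, had 5.87 and 5.72 in wild-type control, 7.09 and 7.10 in wild-type NaCl, 5.31 and 5.56 in OE control, and 5.24 and 5.39 in OE NaCl. Its OE arrays kept within a range of 0.315 and below all wild-type arrays. AT1G26380 and AT1G26390 are neighbouring genes of FAD-linked oxidases like the berberine bridge enzyme. AT1G26380 read 5.66 and 6.16 in wild-type control, 7.38 and 7.66 in wild-type NaCl, 5.54 and 5.62 in OE control, and 5.99 and 5.41 in OE NaCl. AT1G26390 read 4.72 and 4.74 in wild-type control, 6.16 and 6.25 in wild-type NaCl, 4.83 and 4.32 in OE control, and 4.62 and 4.92 in OE NaCl. In AT1G26390 OE overlapped unsalted wild-type, and in AT1G26380 1 of the 4 OE arrays lay within its range and the others below it.

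Several of these genes lie in runs of related genes, and most of their neighbours on the array did not share the pattern of NaCl minus control differences. These runs were chosen after the values were seen, and hybridisation between near copies was not tested. In the run of AT1G26380 and AT1G26390, NaCl minus control was 1.69 in wild-type and -0.68 in OE for AT1G26410 and 2.05 and -0.47 for AT1G26420, which put both below the OE limit of the rule. AT1G26400, between these pairs, had -0.21 and -0.12. Thus 4 of the 5 measured genes of this run passed the wild-type limit and none of the 5 had a difference above 0.20 in OE. Around AT5G16980, AT5G16960 had 1.36 in wild-type and 0.66 in OE, AER had 1.59 and 0.42, just past the limit, and AT5G16990 had 0.06 and 0.38. Among the 3 of this run that passed the wild-type limit, the gene with the larger wild-type difference had the smaller OE difference. The rule partly set this order, since AT5G16980 was chosen for a high wild-type and a small OE difference, and nothing is read from it.

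The other runs held a single member each. Beside AT2G29300, with 1.45 in wild-type, its neighbours AT2G29290 and AT2G29310 had -1.20 and -0.75 in wild-type and 0.04 and -0.01 in OE. Beside AT1G60730 the 4 other measured genes of its run lay between -0.09 and 0.34 in wild-type. AT2G04070, a MATE gene close to AT2G04050, had 0.16 in wild-type and 0.26 in OE, where AT2G04050 had 2.39 and 0.30.

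**Figure D4:**
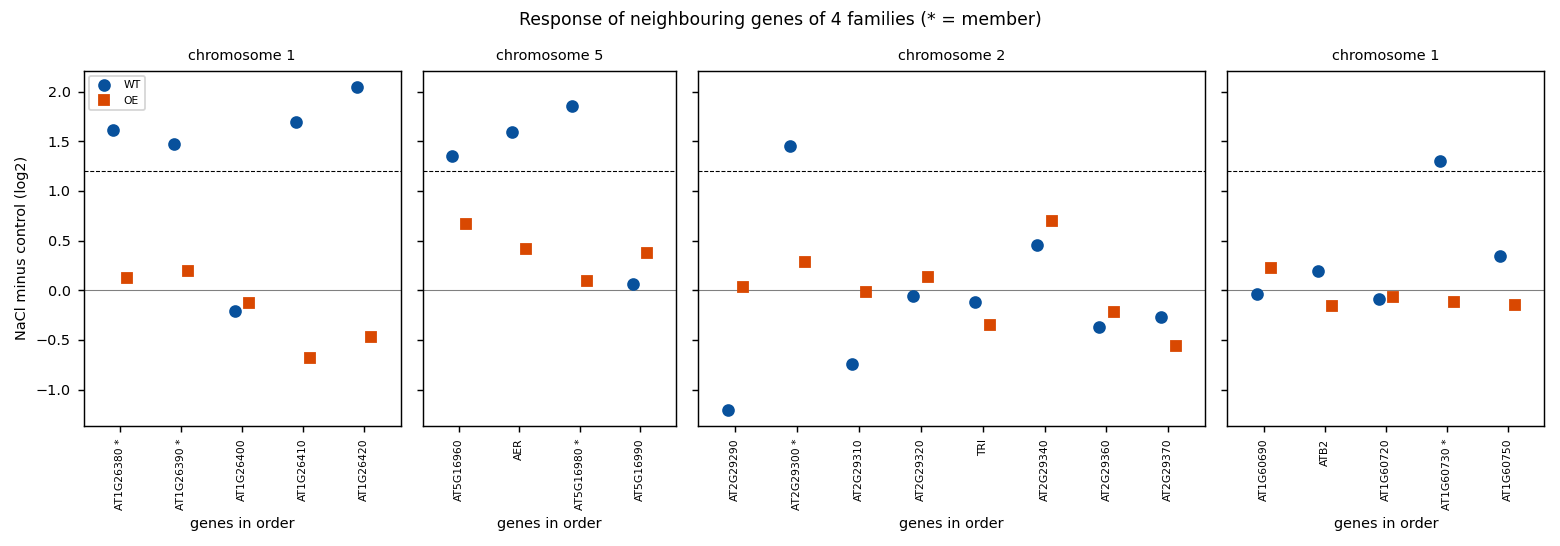
NaCl minus control on the log2 scale in WT (blue circles) and OE (orange squares) for neighbouring genes of 4 families in the order of their locus tags, with members marked by an asterisk and a dashed line at the wild-type limit of 1.2. In the leftmost run 4 of 5 genes lie above the line in WT with OE near or below 0, while in the 2 runs on the right a single gene lies above it.

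LEA proteins, hydrophilic proteins that accumulate in drying cells, gave 4 members. The study reports LEA family genes as induced after NaCl in both genotypes, so these members do not stand for the family. M10 read 4.45 and 4.60 in wild-type control, 6.10 and 5.56 in wild-type NaCl, 4.18 and 4.13 in OE control, and 3.89 and 4.38 in OE NaCl. AT2G03850 read 5.84 and 5.51 in wild-type control, 7.00 and 7.09 in wild-type NaCl, 5.60 and 4.63 in OE control, and 4.46 and 5.10 in OE NaCl. AT5G53820 read 4.64 and 4.42 in wild-type control, 5.78 and 5.83 in wild-type NaCl, 4.51 and 4.34 in OE control, and 4.43 and 4.07 in OE NaCl. In these 3 genes OE was at or below unsalted wild-type, with OE minus wild-type in control of -0.37, -0.56 and -0.11.

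AT2G23120, a LEA gene too, differed from these in both level and position. It read 11.07 and 11.17 in wild-type control, 12.36 and 12.40 in wild-type NaCl, 11.87 and 11.74 in OE control, and 11.98 and 11.88 in OE NaCl. Its OE arrays lay between the wild-type groups, with a range of 0.243, and OE minus wild-type was 0.68 in control and -0.45 in NaCl. These opposite differences cancel in the average difference of 0.12 (SE 0.09, limma adjusted p = 0.341), which does not mean equal levels. The genes of a list of abscisic acid and osmotic stress markers behaved otherwise, since the 3 of 18 that were measured (COR47, COR15A and LTI30) were called higher after NaCl in both genotypes and none is a member. LTI30, a dehydrin, was higher by 1.70 in wild-type and by 2.16 in OE. COR47, also a dehydrin, was higher by 1.24 and 0.69, and COR15A by 1.18 and 0.65, both with a smaller difference in OE.

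Members that act in signalling and gene regulation included the named members with the highest positions. AT1G64380, a transcription factor of the AP2/ERF family, read 6.13 and 6.30 in wild-type control, 7.35 and 7.52 in wild-type NaCl, 7.57 and 7.53 in OE control, and 7.73 and 7.86 in OE NaCl. It was the 1 member with all OE arrays above all wild-type arrays, so that OE without salt already read as high as wild-type with salt. The average difference was 0.85 (SE 0.10, limma adjusted p = 0.00171), opposite in direction to that of most members. With an array left out it ran from 0.80 to 0.89. AT4G02940, an oxygenase of the AlkB type that removes methyl groups from RNA, read 6.23 and 7.00 in wild-type control, 7.96 and 8.06 in wild-type NaCl, 7.67 and 7.85 in OE control, and 8.23 and 7.73 in OE NaCl. OE overlapped salted wild-type, at a position of 0.90, while the 2 unsalted wild-type arrays differed by more than those of most members, and the average difference of 0.56 (SE 0.20) missed the limit (limma adjusted p = 0.0681). That side of the limit turned on the setting, since AT4G02940 was called higher without OE NaCl replicate 2 (0.68, limma adjusted p = 0.0273), without wild-type control replicate 2 (0.75, 0.0405) and with median centring (0.74, 0.0378), and the value was 0.37 (0.181) without wild-type control replicate 1.

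AT3G53600, a C2H2 zinc finger protein, was dim, at 3.71 and 3.84 in wild-type control, 4.93 and 5.25 in wild-type NaCl, 3.80 and 3.56 in OE control, and 3.84 and 4.19 in OE NaCl. OE overlapped unsalted wild-type, with OE minus wild-type in control at -0.09. GH3.17, an enzyme that conjugates auxin to amino acids, read 6.11 and 5.88 in wild-type control, 7.22 and 7.36 in wild-type NaCl, 5.62 and 5.94 in OE control, and 5.32 and 5.47 in OE NaCl. Its OE difference of -0.38 was the lowest of the members, and both OE NaCl arrays lay below every other array.

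Other members with known roles stayed near unsalted wild-type in OE. WSD1, a wax ester synthase of the cuticle, read 5.64 and 5.63 in wild-type control, 7.36 and 7.29 in wild-type NaCl, 5.90 and 5.65 in OE control, and 5.51 and 5.34 in OE NaCl. Its OE arrays lay on both sides of unsalted wild-type, at a position of -0.02. AT1G22570, a transporter of the NPF/PTR family, read 7.64 and 8.09 in wild-type control, 9.30 and 9.31 in wild-type NaCl, 7.36 and 8.20 in OE control, and 7.95 and 7.48 in OE NaCl. AT5G51440, a small heat shock protein, read 6.59 and 6.64 in wild-type control, 7.92 and 7.85 in wild-type NaCl, 6.78 and 6.44 in OE control, and 6.67 and 7.19 in OE NaCl. AT3G57380, a glycosyltransferase, had 4.42 and 4.16 in wild-type control, 5.64 and 5.50 in wild-type NaCl, 4.05 and 4.18 in OE control, and 4.12 and 4.84 in OE NaCl. In the last 3 genes OE minus wild-type in control was -0.08, -0.01 and -0.18, and their OE arrays spread over ranges of 0.835, 0.746 and 0.792.

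The remaining named members have no role stated here. AT3G61930 had the lowest average difference of those that name 1 gene, -2.32 (SE 0.22). It read 5.91 and 6.41 in wild-type control, 7.98 and 7.95 in wild-type NaCl, 4.40 and 4.73 in OE control, and 4.47 and 5.35 in OE NaCl, with all OE arrays below all wild-type arrays. AT4G28460 read 5.32 and 5.37 in wild-type control, 7.22 and 7.06 in wild-type NaCl, 4.59 and 4.72 in OE control, and 4.68 and 5.39 in OE NaCl, where the last array alone reached unsalted wild-type. AT1G20180 had the narrowest OE range among the members that name 1 gene, 0.174, at 4.91 and 4.97 in control and 4.88 and 5.05 in NaCl, against 4.70 and 4.69 in wild-type control and 6.43 and 6.42 in wild-type NaCl. The probe set shared by AT1G10190 and AT4G15050 was steadier still in OE, with values from 3.59 to 3.74, all below its wild-type arrays. AT4G02360, AT3G49130 and AT1G74790 had OE means near unsalted wild-type, at positions of -0.08, 0.16 and 0.03.

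Of the members that name 1 gene, 4 without a stated role were not called. AT1G28190 and AT1G65510 had positions of 0.33 and 0.29, between the wild-type groups and nearer to control. Without OE control replicate 1, the average difference of AT1G28190 was -0.42, against -0.23 with all arrays, and its side of the limit changed. AT2G34610 and AT1G13810 had arrays that disagreed within OE. AT2G34610 read 3.72 and 3.88 in OE control and 3.71 and 4.66 in OE NaCl. AT1G13810 read 4.09 and 5.14 in OE control and 4.06 and 5.70 in OE NaCl, the widest OE range of the members (1.64), while its wild-type arrays read 4.79 and 4.47 in control and 5.94 and 5.77 in NaCl. For AT1G13810 the mean OE difference of 0.26 thus comes from arrays that lie on both sides of unsalted wild-type in both OE groups. Both genes turned on a single array. The average difference of AT2G34610 was -0.49 with all arrays, -0.73 without OE NaCl replicate 2 and -0.25 without OE NaCl replicate 1, and that of AT1G13810 was -0.49, -0.90 and -0.08. Without OE NaCl replicate 2 both changed their side of the limit, and nothing about either gene is read from that.

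Among the 21 members with no gene name here, 11 were called lower, 1 higher and 9 not. Over all probe sets 16.1% were called lower and 13.7% higher, and as above nothing is read from the lower calls. The probe set 266376_at had the largest wild-type difference of all members, 2.86, with 4.62 and 4.42 in wild-type control, 7.37 and 7.39 in wild-type NaCl, 5.16 and 4.56 in OE control, and 4.70 and 4.55 in OE NaCl. The probe set 254255_at had the lowest position, -1.67, with 6.77 and 6.93 in wild-type control, 8.10 and 8.18 in wild-type NaCl, 4.80 and 4.48 in OE control, and 5.33 and 4.21 in OE NaCl. Its average difference of -2.79 (SE 0.24) was the lowest of the 55. At the other end, 264460_at read 7.48 and 8.29 in wild-type control, 9.15 and 9.18 in wild-type NaCl, 9.04 and 9.26 in OE control, and 9.56 and 9.34 in OE NaCl. It was called higher (0.77, SE 0.18, limma adjusted p = 0.022), and the call was lost with an array left out (highest adjusted p 0.0838).

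The OE side of the rule rests on arrays that differ, and each was set against the OE control mean in a comparison added after the data were seen. With OE NaCl replicate 1 alone, 42 of the 55 members lay within 0.4 of 0, beside 71.9% of all probe sets, 9 lay above and 4 below. With OE NaCl replicate 2 alone, 38 lay within 0.4, beside 53.1% of all probe sets, 13 lay above and 4 below. Among those above were AT3G61930 (0.78), AT4G28460 (0.74), AT3G57380 (0.73) and the unnamed probe set 258259_s_at (0.97). With each array alone 29 members lay within 0.4. The highest single value was 1.09, with replicate 2. The median OE difference of the members was 0.04 with replicate 1 and 0.11 with replicate 2. For the 387 probe sets that met the wild-type limits it was 0.97 and 1.26. This contrast is built in, since the rule limited the mean of these same arrays in the members and the 387 had no limit in OE. The counts within 0.4 are tied to the rule in the same way.

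Of the probe sets that name 1 gene and met the other parts of the rule, those nearest each limit are given here. Just inside the wild-type limit lay AT1G65510 and AT1G64380 (both 1.22), and just outside AT5G24600 (1.19) and AT4G22980 (1.14). At the upper OE limit, AT1G28190 and AT4G28460 lay inside (both 0.38) and AT1G56060 (0.41) and AER (0.42) outside. At the lower OE limit, GH3.17 (-0.38) and WSD1 (-0.35) lay inside, and AT1G26420 (-0.47) and AT1G26410 (-0.68) outside.

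None of the 30 members that name 1 gene was on any of 12 lists of marker genes compared with the set. The 4 members that name several genes and the 21 unnamed ones were not matched, and few listed genes were measured under a single name. Of 14 jasmonate genes 2 were measured, none was called after NaCl in wild-type, and THI2.1, a thionin, was called lower in OE (-1.52). Of 16 genes of oxidative stress and alternative respiration 3 were measured, and AT2G21640 and NDB2, an alternative NADH dehydrogenase of mitochondria, were called higher in both genotypes, by 0.73 and 1.22 in wild-type and by 0.93 and 0.93 in OE. Of 6 root genes 2 were measured, and PYK10, a beta-glucosidase of root ER bodies, was called higher in both genotypes, by 1.32 in wild-type and 1.92 in OE. EXPA7, an expansin of root hairs, was not called. Of 8 leaf genes 2 were measured, and LHCB4.2, a light-harvesting protein, was called lower in wild-type (-0.55). The 1 ethylene gene and the 1 pollen gene measured were not called. No gene of the lists for salicylic acid and pathogen defence, heat shock, senescence, phosphate starvation and seed was measured under a single name. The part of changes in root or leaf share in the members' values was not tested.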

How the data were processed

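The authors deposited 1 value per array for each probe set, on a log2 scale, made per the labels with Affymetrix Expression Console, whose version and summarization method are not given in the sources used here. The labels name Trizol for RNA extraction and the methods an RNeasy kit and triplicates, while 2 arrays per group were used here. Of 22810 probe sets, 64 control probe sets were left out. The other 22746 were tested: 13513 of them name a single gene, of which 13436 were found in the gene table of TAIR10.1, 503 are shared by several genes, and 8730 are unnamed here. No gene coordinates are printed, because the files name no genome build. No further normalization was applied.

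The members and gene lists were chosen with earlier results of these data known. The fit used limma 3.58.1 in R 4.3.3, with a mean for each of the 4 groups, and OE minus wild-type averaged over control and NaCl was tested for all probe sets. With equal spreads its error is independent of that of the responses the rule used, but the spreads were not equal. Among members that name 1 gene, the named genes were the 10 with the largest wild-type difference, the 5 largest positive and the 5 largest negative called average differences (1 positive was called), the 5 with the narrowest OE range, and those nearest each limit of the rule. All other members that name a gene were named after their values were seen. The procedure was tested on simulated data with known changes and the same spread for all probe sets and arrays. It recovered 100% of the log2 changes of 1 and of 2, with 8 false calls. The spreads of these data were unequal, so the simulation does not show how the fit performs on them. The alternatives were quantile normalization, median centring, trended, robust and unmoderated variances, array weights, replicate number as a block, filters on dim probe sets at the median or 25th percentile, each array left out, and the methods' limit (P under 0.05, taken as not adjusted, and a log2 difference over 2). For arrays, their number limits the precision.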

Additional observations from a re-analysis of the deposited data

How the results depend on the processing

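The rule gave 55 members. With an array left out it gave between 45 (without OE NaCl replicate 1, 38 shared with the 55) and 67 (without OE NaCl replicate 2, 42 shared). Quantile normalization gave 53 (39 shared), median centring 70 (45 shared), and a filter at the median probe set kept 21 of the 55. The 37 members called lower became 6 under that filter and 6 under the limit of the methods, and between 28 and 41 with an array left out. The 2 called higher became 5 with median centring, 1 in the unmoderated linear model and 0 under the limit of the methods. With an array left out they became between 1 (without OE control replicate 2 or without either wild-type NaCl array) and 4 (without OE NaCl replicate 2). Median centring also moved the calls over all probe sets, from 13.7% higher and 16.1% lower to 26.1% and 11.0%, and without OE NaCl replicate 2 they were 24.4% and 26.6%. With the replicate block 34 members were lower and 2 higher. The replicate numbers did not pair the arrays, since the correlations of same-numbered deviations ran from -0.205 to 0.181. The members over a position of 0.75 were 5, and 3 without wild-type control replicate 2, OE control replicate 1 or OE NaCl replicate 1, alternatives added after the data were seen. For the 34 members that name a gene, 495 of 550 pairs of gene and setting kept the direction and the side of the limit, 49 lost the call, 6 gained it and 0 changed direction. The counts of calls and of positions used the members as chosen from all 8 arrays, while for the number of members the rule was applied anew.

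Each group had 2 arrays, so the spread of a single member is poorly known, and the shared spread understates that of OE. Members near the lower quartile of the values have little room below them. The average difference is tied to the position and to the wild-type difference that the rule asked for, and the wild-type and OE responses carry no test. Whether the members would pass the rule in other arrays was not tested.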
